A study of Mus musculus with 10 samples.

Results

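Serum amyloid A (SAA) and acute-phase genes were followed in the jejunum of KSR23 and WT mice. The 9 genes Saa1, Saa2, Saa3, Saa4, Lcn2, Hp, Lrg1, Lbp and Serpina10 were taken by their symbol from the tables of counts, which held 24062 symbols in each library. All 9 symbols were present. The genes were selected on their difference between KSR23 and WT counts in these same libraries and on their place in the acute-phase response, so their KSR23 and WT values, and the calls counted over them, are a description and support nothing further.

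RNA of the jejunum, the middle stretch of the small intestine, was sequenced from C57BL/6 mice at postnatal day 5, with 5 libraries of WT and 5 of KSR23 mice. WT denotes wild-type animals, for which no allele or agent is listed. KSR23 (genotype KSR23+) denotes mice in which cre recombinase under the keratin 14 promoter, active in keratinocytes, switched on the R23 cassette for interleukin-23 (IL-23). The cytokine was therefore directed to keratinocytes, and the paper reports more of it in skin than in tongue, esophagus or gut. The study asked whether gene expression in the intestine changed with the cytokine. Whole tissue was homogenised, so a higher level may come from more RNA per cell or from more cells of one type, and these cannot be told apart.

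Acute-phase proteins are plasma and mucosal proteins whose production changes within hours of inflammation or infection. Most are made by hepatocytes under interleukin-6 (IL-6), interleukin-1 (IL-1) and tumour necrosis factor, through STAT3, C/EBP and NF-kB factors. Several are also made by the gut lining, where interleukin-22 (IL-22) acts on epithelial cells through STAT3. SAA proteins are small lipid carriers of high-density lipoprotein that also bind retinol. In mice Saa1 and Saa2 are strongly induced in liver and gut, Saa3 is made mainly outside the liver, and Saa4 is the constitutive member.

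The Saa genes lie side by side on chromosome 7 of build mm10. Their order is Saa3 (46711998 to 46715700), Saa4 (46727998 to 46732603), Saa1 (46740497 to 46742980) and Saa2 (46751790 to 46754313), a stretch of 42.3 kb. Saa2 is on the plus strand and the other Saa genes are on the minus strand. The transcripts of Saa1 and Saa2 were 94.4% identical, and all other pairs were 72.6% to 75.3% identical. The RefSeq gene table gives each of the names Saa1 and Saa2 as an older name of the other gene, so which locus a symbol counted rests on the annotation version. Of the 75-base stretches of Saa1 transcripts, 4.67% occurred without mismatch in Saa2, and 4.55% of those of Saa2 occurred in Saa1.

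Promoters are shown for the Saa genes and Lcn2, since neighbours within the Saa stretch differed widely in level. RefSeq promoter sequences (build GRCm38.p6) were present for 6 of the 9 genes, Hp, Lbp and Serpina10 being without one. The 250 bases before the RefSeq start are given 5′ to 3′ on the strand of the gene. The RefSeq start differs from the GENCODE gene end for some genes. The Lcn2 window lies wholly inside the GENCODE gene (32384633 to 32388252), and those of Saa2, Saa3 and Lrg1 overlap their genes in part. Capitals mark matches to the C/EBP motif TTGCNNAA on either strand.
Saa1 (chr7:46742981-46743230, minus strand): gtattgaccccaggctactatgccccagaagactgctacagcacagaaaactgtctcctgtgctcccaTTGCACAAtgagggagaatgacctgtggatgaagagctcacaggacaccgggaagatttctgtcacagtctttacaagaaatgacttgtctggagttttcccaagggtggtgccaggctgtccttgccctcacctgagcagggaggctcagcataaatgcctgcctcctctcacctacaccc
Saa2 (chr7:46751583-46751832, plus strand): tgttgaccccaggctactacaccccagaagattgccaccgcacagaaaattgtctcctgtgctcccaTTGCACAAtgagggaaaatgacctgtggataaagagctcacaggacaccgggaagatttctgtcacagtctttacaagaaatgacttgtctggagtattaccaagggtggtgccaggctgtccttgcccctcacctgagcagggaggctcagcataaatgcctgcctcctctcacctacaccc
Saa3 (chr7:46715677-46715926, minus strand): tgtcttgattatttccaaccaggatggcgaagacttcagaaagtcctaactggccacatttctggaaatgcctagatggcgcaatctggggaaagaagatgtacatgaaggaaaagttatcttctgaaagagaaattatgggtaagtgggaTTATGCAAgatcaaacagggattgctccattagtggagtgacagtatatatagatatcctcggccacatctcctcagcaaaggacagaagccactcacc
Saa4 (chr7:46732604-46732853, minus strand): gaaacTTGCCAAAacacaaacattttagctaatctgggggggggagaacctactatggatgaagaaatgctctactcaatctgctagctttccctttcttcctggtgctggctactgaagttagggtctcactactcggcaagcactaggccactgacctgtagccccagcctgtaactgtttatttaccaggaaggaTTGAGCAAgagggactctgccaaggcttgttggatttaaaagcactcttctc
Lcn2 (chr2:32387740-32387989, minus strand): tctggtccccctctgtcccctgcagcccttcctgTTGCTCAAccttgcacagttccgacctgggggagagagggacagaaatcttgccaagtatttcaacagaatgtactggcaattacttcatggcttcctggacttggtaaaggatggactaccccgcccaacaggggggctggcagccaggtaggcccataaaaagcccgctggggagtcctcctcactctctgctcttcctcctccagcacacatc
The C/EBP motif was present in 5 of the 6 windows available, that of Lrg1, not shown, being without it, and 9.57% of 32841 mouse promoter windows of 250 bases held it. In Saa1 and Saa2 the same letters, TTGCACAA, lay 182 to 175 and 183 to 176 bases before the start. In Saa3 the match was TTGCATAA on the opposite strand, 99 to 92 bases before the start. Saa4 held 2 matches, TTGCCAAA and, on the opposite strand, TTGCTCAA. The windows of Saa1 and Saa2 shared 95.2% of their bases, and no other pair of the windows above shared more than 58.0%. The STAT motif TTCNNNGAA (7.02% of all windows), its strict form TTCCNGGAA (0.913%) and the TATA box TATAAA (12.4%) had no match in any of the 6 windows. The NF-kB motif, GGG and TTCC with 3 bases between them (4.65%), matched only in the window of Lrg1, as GGGCTCTTCC, 34 to 25 bases before the start. These matches describe letters in a window and say nothing of binding.

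The libraries were compared before the genes were described. They held 25.5 to 32.0 M counts in WT and 31.2 to 60.9 M in KSR23 (M stands for 1e6). Levels are given as CPM, counts per 1 M, on totals scaled by trimmed mean of M-values (TMM), and 3 counts corresponded to 0.0492 to 0.118 CPM. At 9056 autosomal genes, replicates 4 and 5 were the highest or lowest of their group at 8.41% to 18.2%, and replicates 1 to 3 at 46.1% to 75.5%, where 40% would be given by exchangeable libraries. Replicates 4 and 5 thus lay between the others at most genes, and calls in replicates 1 to 3 alone are given for the 9 genes and for the lists of genes around them. The study describes the libraries as biological replicates, and no label ties each to its own mouse. Here n = 5 counts libraries, and an SD or p measures the spread between them. If replicates 4 and 5 are not separate mice, such an SD or p is too small. Genes rich in GC bases also stood apart. The top eighth by GC content (1168 of 9344 genes) deviated from the group mean by a median of -0.65 on the log2 scale in WT replicate 1 and -0.88 in KSR23 replicate 3, against -0.35 to 0.53 in the other libraries. The summed CPM of 4 Y-linked genes was 16.1 to 207 in WT and 0.0244 to 148 in KSR23, and within KSR23 it was 148 and 84.1 in replicates 1 and 4 against 0.0244 to 0.289 in the others. All 9 markers of the small intestinal epithelium were present, with a summed 62553 to 135426 CPM in WT and 33055 to 95237 CPM in KSR23.

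Saa3 was the most abundant of the 9 genes in the KSR23 jejunum by CPM. In WT replicates 1 to 5 its counts were 9, 14, 25, 10 and 10, and in KSR23 replicates 1 to 5 they were 15726, 5283, 4631, 11588 and 5955. This was 0.471 ± 0.264 CPM in WT and 190 ± 23.8 CPM in KSR23 (SD, n = 5 each), and the groups did not overlap. The log2 fold change was 8.67 ± 0.35 (SE). The lowest KSR23 library, replicate 5, stood at 168 CPM and the highest WT library, replicate 3, at 0.917 CPM.

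Saa1 and Saa2 were near the detection limit in WT and present in each KSR23 library. Saa1 had 10, 1, 6, 1 and 0 counts in WT and 6317, 195, 746, 3511 and 731 counts in KSR23. The corresponding levels were 0.119 ± 0.138 CPM and 41.7 ± 33.8 CPM (SD, n = 5 each), a log2 fold change of 8.41 ± 0.80 (SE). Replicates 1 and 4 were highest and replicate 2 was lowest among the KSR23 libraries. Saa2 had 1 count in WT replicate 1 and 0 in the other WT libraries, and 429, 36, 71, 288 and 63 counts in KSR23. Its level in KSR23 was 3.39 ± 2.13 CPM (SD, n = 5). With 1 WT count in all, the pooled ratio of KSR23 to WT for Saa2 was 595, and its 95% counting interval (exact Clopper-Pearson, unscaled totals) ran from 106 to 23514. Neither gene overlapped between the groups, and Saa2 followed the order of Saa1 over the KSR23 libraries.

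Saa4, which lies between Saa3 and Saa1, was close to 0 in both groups. It had 5 counts in WT replicate 1 and 0 in the other WT libraries, and 0, 0, 7, 6 and 8 counts in KSR23. The log2 fold change was 1.82 ± 1.73 (SE) and the groups overlapped. Without WT replicate 1 it was 5.19 and Saa4 was called, so its call depends on the 5 counts of that library.

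The 2 secreted proteins that bind bacterial products were both higher in KSR23 and both present in WT. Lcn2 (chromosome 2, 32384633 to 32388252, minus strand) encodes lipocalin 2, which holds bacterial siderophores and so withholds iron. It had 146, 97, 141, 150 and 138 counts in WT and 364, 467, 324, 645 and 616 counts in KSR23. Its level was 4.52 ± 0.723 CPM in WT and 12.4 ± 4.62 CPM in KSR23 (SD, n = 5 each), with a log2 fold change of 1.45 ± 0.35 (SE). KSR23 replicate 1 stood at 5.177 CPM, beside the highest WT library at 5.181 CPM, and the other KSR23 libraries lay at 11.4 to 17.4 CPM. Lbp (chromosome 2, 158306493 to 158332852, plus strand) encodes the protein that passes lipopolysaccharide to CD14. It had 308, 173, 145, 224 and 215 counts in WT and 2108, 1369, 1503, 2053 and 1750 counts in KSR23. Its level was 7.10 ± 1.69 CPM in WT and 43.9 ± 11.5 CPM in KSR23 (SD, n = 5 each), with a log2 fold change of 2.63 ± 0.31 (SE) and no overlap. The lowest Lbp level in KSR23 was 30.0 CPM, in replicate 1, against at most 9.53 CPM in WT.

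Hp and Lrg1 were higher in KSR23 in 4 of 5 libraries. Hp (chromosome 8, 109575128 to 109579172, minus strand) encodes haptoglobin, the plasma scavenger of free hemoglobin. It had 44, 13, 17, 15 and 24 counts in WT and 47, 197, 58, 206 and 208 counts in KSR23. KSR23 replicate 1, at 0.668 CPM, fell within the WT range of 0.432 to 1.36 CPM, and the other KSR23 libraries lay at 2.30 to 6.35 CPM. The log2 fold change of Hp was 2.31 ± 0.56 (SE). Lrg1 (chromosome 17, 56119678 to 56122001, minus strand) encodes leucine-rich alpha-2-glycoprotein, a secreted modulator of transforming growth factor beta signalling. It had 5, 52, 83, 60 and 16 counts in WT and 2068, 391, 10, 848 and 309 counts in KSR23. KSR23 replicate 3, with 10 counts (0.397 CPM), lay within the WT range, and the other KSR23 libraries were at 8.72 to 29.4 CPM. The log2 fold change of Lrg1 was 3.17 ± 0.81 (SE).

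The low Lrg1 values fell in the 2 libraries that were poor in GC-rich genes, WT replicate 1 and KSR23 replicate 3. Of the 9 genes Lrg1 had the highest GC content, 63.0% of the bases of its longest transcript, against 46.9% to 56.2% for the others. With offsets smoothed over GC content, a setting chosen after seeing the data, Lrg1 stood at 0.467 to 1.42 CPM in WT and 1.54 to 12.5 CPM in KSR23, without overlap. The range among KSR23 libraries went from 74.0-fold to 8.16-fold. The log2 fold change was 3.14 ± 0.47 (SE), close to the value above and with a smaller error.

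**Figure D1:**
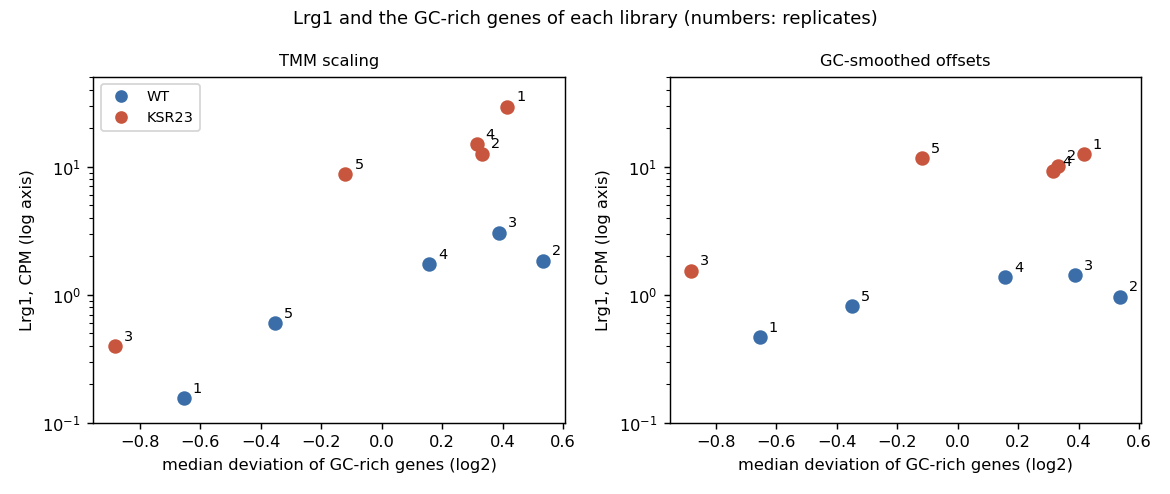
Lrg1 in CPM on a log axis against the median deviation of GC-rich genes from the group mean in log2 units, with TMM scaling on the left and GC-smoothed offsets on the right. Each point is a library (blue WT, red KSR23, numbers give the replicate). With TMM scaling KSR23 replicate 3 lies among the WT libraries at 0.397 CPM, and with GC smoothing all KSR23 libraries lie above the WT libraries.

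Serpina10 had the largest log2 fold change of the 9 genes with all 10 libraries, whereas without WT replicate 1 that of Saa2 was larger (9.99 against 9.28). It encodes the protein Z-dependent protease inhibitor, a plasma serpin that inactivates activated coagulation factor X, and lies on the minus strand of chromosome 12 at 103614786 to 103631444. A single count was seen in WT, in replicate 4, and KSR23 replicates 1 to 5 had 1196, 10, 60, 835 and 45 counts. In KSR23 this was 7.16 ± 8.05 CPM (SD, n = 5), from 0.322 CPM in replicate 2 to 17.01 CPM in replicate 1. The log2 fold change was 9.50 ± 1.72 (SE). The pooled ratio of KSR23 to WT was 1439, with a 95% counting interval of 258 to 56853 (exact Clopper-Pearson, unscaled totals). Its SD in KSR23 exceeded its mean, so the fold is poorly fixed although the groups did not overlap.

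**Figure D2:**
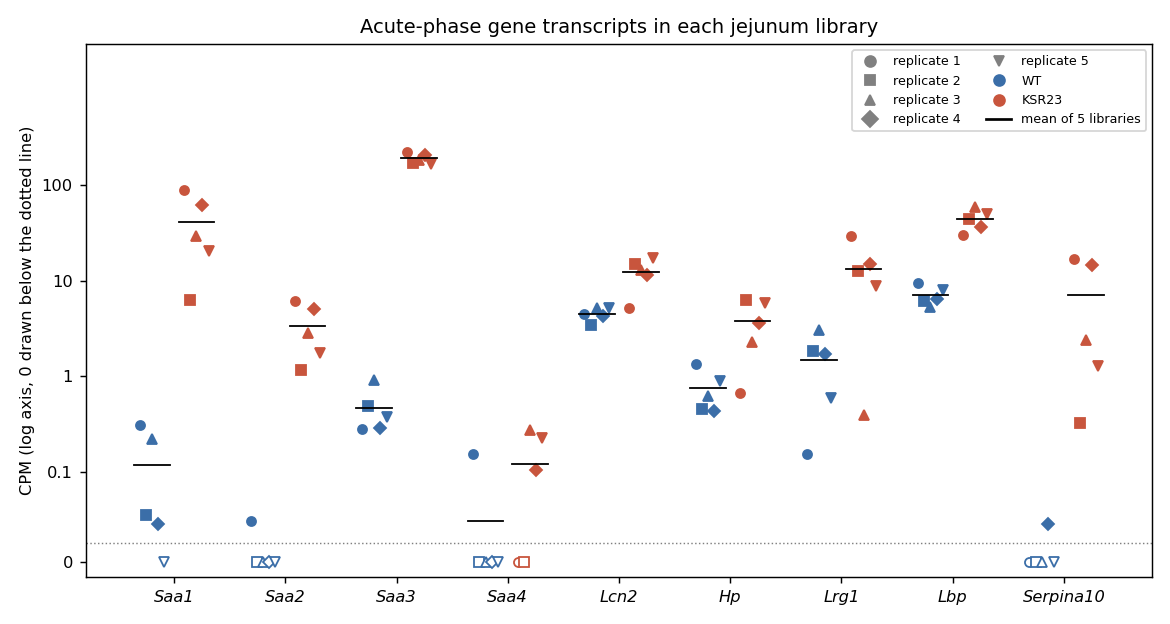
CPM of the 9 genes in each library on a log axis, with values of 0 drawn as open symbols below the dotted line. Blue is WT, red is KSR23, symbol shapes give the replicate and black bars the mean of 5 libraries. Saa1, Saa2, Saa3, Lbp and Serpina10 do not overlap between the groups, and 1 KSR23 library each of Lcn2, Hp and Lrg1 lies within or at the WT range.

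Among the 9 genes, 8 were called higher in KSR23 at an adjusted p under 0.05 by the likelihood ratio test of edgeR, and Saa4 was not called. Over all 17632 genes tested, 9.74% were called higher and 8.76% were called lower. By the quasi-likelihood F test 8 of the 9 were again called, where 8.47% of all genes were called higher. In 5 of the 9 genes every KSR23 library was above every WT library, and this held for 7.41% of all genes. The median log2 fold change of the 9 genes was 3.17 (5.19 without WT replicate 1), and that of all genes was 0.03. These counts follow from how the genes were chosen. All 9 passed the filter of 5 or more counts in at least 1 library, Saa2 and Serpina10 through KSR23 libraries alone. In replicates 1 to 3 alone, Saa1, Saa2, Saa3, Lbp and Serpina10 were called (2.01% of all genes were called higher), with log2 fold changes of 1.37 for Lcn2, 1.96 for Hp and 3.10 for Lrg1. The quasi-likelihood test on replicates 1 to 3 called 4 of the 9 (0.574% of all genes higher), Serpina10 no longer among them. When the Y-linked share of each library was entered as a covariate (4.46% of all genes higher), Lcn2 (0.87) and Hp (1.72) were not called. With GC-smoothed offsets (8.48% of all genes higher) 8 of the 9 were called.

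**Figure D3:**
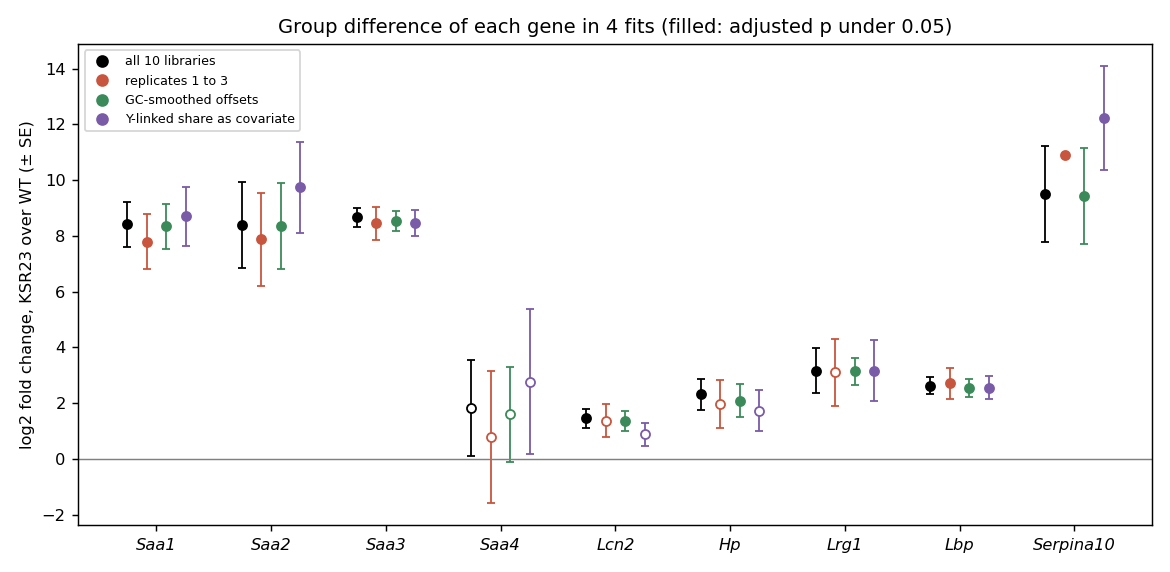
Log2 fold change of KSR23 over WT for the 9 genes with SE bars in 4 fits: all 10 libraries (black), replicates 1 to 3 (red), GC-smoothed offsets (green) and the Y-linked share as covariate (purple). Filled symbols passed an adjusted p of 0.05, and Serpina10 in replicates 1 to 3 has no bar because those WT libraries had 0 counts. Saa1, Saa2, Saa3 and Serpina10 lie between 7.80 and 12.2 in each fit, and the other genes lie lower.

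Levels of the genes were compared per kb of annotated exons. In WT the order was Lcn2 (4.95 ± 0.791 CPM per kb), Lbp (2.15 ± 0.512), Lrg1 (1.05 ± 0.807) and Hp (0.562 ± 0.288), with the Saa genes and Serpina10 at 0.195 CPM per kb or less (SD, n = 5). Lcn2 was above Lbp in 5 of 5 WT libraries, whereas Lrg1 was above Hp in 3 of 5. In KSR23 Saa3 (73.0 ± 9.13 CPM per kb) and Saa1 (68.5 ± 55.6) were on top and changed places between libraries, Saa3 being higher in 3 of 5. Lcn2 (13.5 ± 5.05 CPM per kb) and Lbp (13.3 ± 3.49) came next, and did not differ beyond their spread (Lcn2 higher in 3 of 5). Lrg1 (9.40 ± 7.54), Saa2 (5.20 ± 3.27), Hp (2.80 ± 1.78) and Serpina10 (2.05 ± 2.30) followed, and Saa4 was last at 0.0583 ± 0.061 CPM per kb. The place of Saa3 rests on its length. Its annotation holds a transcript of 2200 bases beside one of 555 bases, and per kb of the shorter one, a scale added after seeing the data, Saa3 stood at 343 ± 42.9 CPM per kb in KSR23 and above Saa1 in 5 of 5 libraries. In WT it then stood at 0.848 ± 0.476 CPM per kb, above Hp in 4 of 5 libraries. On the same scale Lbp (17.4 ± 4.57 CPM per kb) was above Lcn2 in 5 of 5 KSR23 libraries. Per kb of stretches found in no other gene, the KSR23 means of Saa1 and Saa3 were 81.8 and 76.4 CPM per kb. The order of these means was the reverse of that per kb of exons, but Saa1 was above Saa3 in only 2 of 5 libraries. That length counts starts of stretches, which shortens a short gene more even where nothing is shared. Saa1 had 535 starts for 609 exon bases, and Saa3 had 2531 for 2606. The changed order therefore does not show an effect of shared sequence.

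The KSR23 libraries differed among themselves in a gene-specific way. Saa3 ranged over 1.33-fold, with a coefficient of variation of 12.5%, below that of all but 3.38% of the 12698 genes at 1 CPM or more in the KSR23 mean. Saa1 ranged over 14.3-fold and Serpina10 over 52.8-fold, where the median of those genes was 2.40-fold. Saa3 therefore supplied 70.0% of the counts of the Saa genes in KSR23 replicate 1 and 95.8% in replicate 2. The count ratio of Saa1 to Saa2 within a library was 5.42 to 14.7. Genes also differed in which library was extreme. Saa1, Saa2, Saa3, Lrg1 and Serpina10 were highest in KSR23 replicate 1, whereas Lcn2, Hp and Lbp were lowest there. Replicate 1 was also the deepest library (60.9 M counts) and, of the KSR23 libraries, the highest in GC-rich genes (0.42) and in Y-linked CPM (148), and the part of these in the pattern was not tested.

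**Figure D4:**
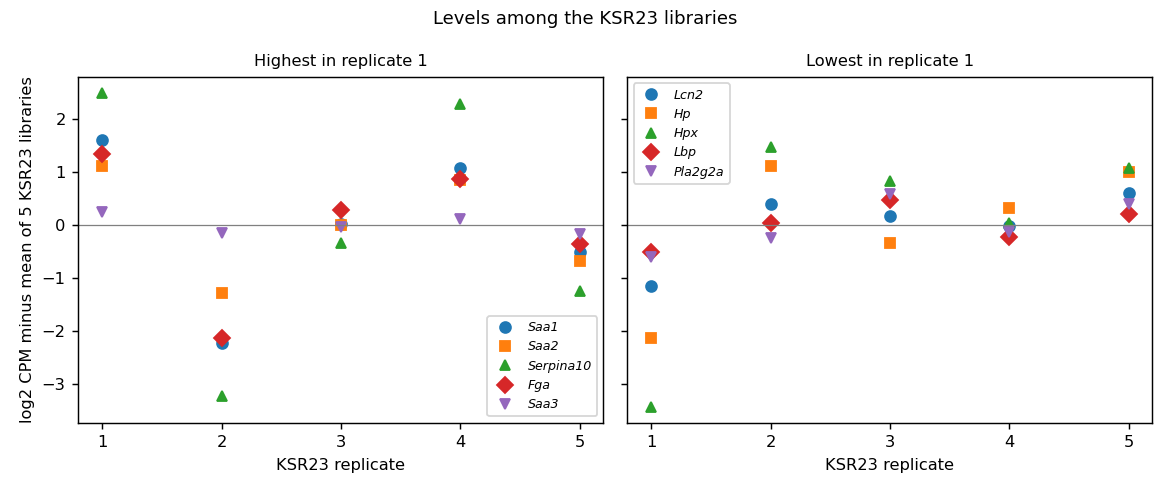
Log2 CPM of 10 genes in the 5 KSR23 libraries, each as the difference from its mean over these libraries. Panels group genes by the pattern seen, and the groups were made after their values were seen. On the left Saa1, Saa2, Serpina10 and Fga are highest in replicate 1 and lowest in replicate 2, and Saa3 is highest in replicate 1 within a 1.33-fold range. On the right Lcn2, Hp, Hpx, Lbp and Pla2g2a are lowest in replicate 1.

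Other positive acute-phase proteins did not move as one group. Of 29 listed genes 25 were tested, and 9 rose and 6 fell in KSR23 (60.0% called, where 18.5% of all tested genes were called). The median log2 fold change was 0.59, against 0.03 over all genes, but it was 0.37 and 0.31 without KSR23 replicate 3 or 5 and -0.35 with the Y-linked share as covariate. With replicates 1 to 3 it was close to 0, and edgeR called 9 of the 25 (6 higher and 3 lower), or 4 in its quasi-likelihood form. Fga, the fibrinogen alpha chain, rose from 0.472 ± 0.310 to 22.7 ± 15.5 CPM (SD, n = 5 each), with a log2 fold change of 5.57 ± 0.62 (SE, edgeR adjusted p = 3.86e-12). Hpx, the heme carrier hemopexin, rose from 0.527 ± 0.194 to 17.3 ± 11.5 CPM (log2 fold change 5.03 ± 0.64, edgeR adjusted p = 9.52e-10). Pla2g2a, a secreted antibacterial phospholipase whose gene carries a frameshift in C57BL/6 mice, rose from 0.625 ± 0.241 to 18.8 ± 6.33 CPM (log2 fold change 4.90 ± 0.38, edgeR adjusted p = 3.57e-27). Itih4 (4.14 ± 0.61), Fgb (3.47 ± 0.94), Serpina3n (2.73 ± 0.49), Steap4 (1.48 ± 0.39), C3 (1.20 ± 0.38) and Cfb (0.82 ± 0.30) rose as well on the log2 scale, Cfb without a call in the quasi-likelihood test (adjusted p = 0.0503). The 3 fibrinogen chains, which form one protein, did not move together. Fgb spanned 0.0645 to 15.2 CPM in KSR23, with replicate 2 the lowest, and Fgg stood at 0.444 ± 0.254 CPM in WT and 0.126 ± 0.126 CPM in KSR23 (edgeR adjusted p = 0.0883).

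Within KSR23, Fga kept nearly the same ratio to Saa1 although both ranged widely. The count ratio of Fga to Saa1, computed after the profiles were seen, was 0.485 to 0.706 in the 5 libraries, a 1.46-fold range, while Fga itself ranged from 3.90 to 43.6 CPM. Replicates 4 and 5 lay between the others at most genes, so these ratios may not be independent. Hpx, like Hp, was lowest in KSR23 replicate 1 (1.02 CPM) and stood at 11.4 to 31.0 CPM in the others. Both products clear the debris of red cells, Hp as a hemoglobin binder and Hpx as a heme binder. The ratio of Hpx to Hp counts was 1.53 to 8.60, so these genes shared a lowest library and not a fixed ratio.

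The Serpina1 genes, which encode alpha-1-antitrypsin, went the opposite way from Serpina10. Serpina1e fell from 761 ± 175 to 52.5 ± 28.2 CPM (SD, n = 5 each), with a log2 fold change of -3.86 ± 0.46 (SE, edgeR adjusted p = 1.44e-11). Serpina1a fell from 250 ± 54.6 to 8.03 ± 4.51 CPM (log2 fold change -4.96 ± 0.43, edgeR adjusted p = 4.67e-20). Serpina1d (-4.27), Serpina1c (-2.04) and Serpina1b (-1.87) fell too on the log2 scale. These genes are near-identical copies of each other and reads with more than 1 placement were not counted, so the split among them is uncertain. Itih3, a hyaluronan-binding chain, fell from 8.18 ± 0.986 to 3.74 ± 1.70 CPM (edgeR adjusted p = 0.012). Crp, the classical human acute-phase protein, stood at 0.140 ± 0.0971 CPM in WT and 0.149 ± 0.207 CPM in KSR23, and Orm1, Orm2, Orm3 and Hamp2 did not reach 5 counts in any library.

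Among 10 genes of negative acute-phase proteins, 4 of the 9 tested fell and none rose (44.4% called, against 18.5% of all genes), with a median log2 fold change of -1.27. With replicates 1 to 3 edgeR called 2, or 0 in its quasi-likelihood form, and the unadjusted p was under 0.05 in 3 and 2. Ttr, the carrier of thyroxine and of retinol-binding protein, fell from 484 ± 145 to 35.1 ± 19.6 CPM (SD, n = 5 each), with a log2 fold change of -3.79 ± 0.46 (SE, edgeR adjusted p = 1.27e-11). Apom, an apolipoprotein that carries sphingosine-1-phosphate, fell from 17.4 ± 4.54 to 2.46 ± 1.16 CPM (log2 fold change -2.83 ± 0.38, edgeR adjusted p = 1.23e-10). Gc, the vitamin D-binding protein, fell from 0.686 ± 0.381 to 0.153 ± 0.121 CPM (edgeR adjusted p = 0.00812). Alb, albumin, fell from 1.98 ± 1.10 to 0.448 ± 0.451 CPM (edgeR adjusted p = 0.0439), and was not called by the quasi-likelihood test (adjusted p = 0.0937). Trf, transferrin, stood at 55.9 ± 7.71 CPM in WT and 42.5 ± 9.72 CPM in KSR23 without a call.

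**Figure D5:**
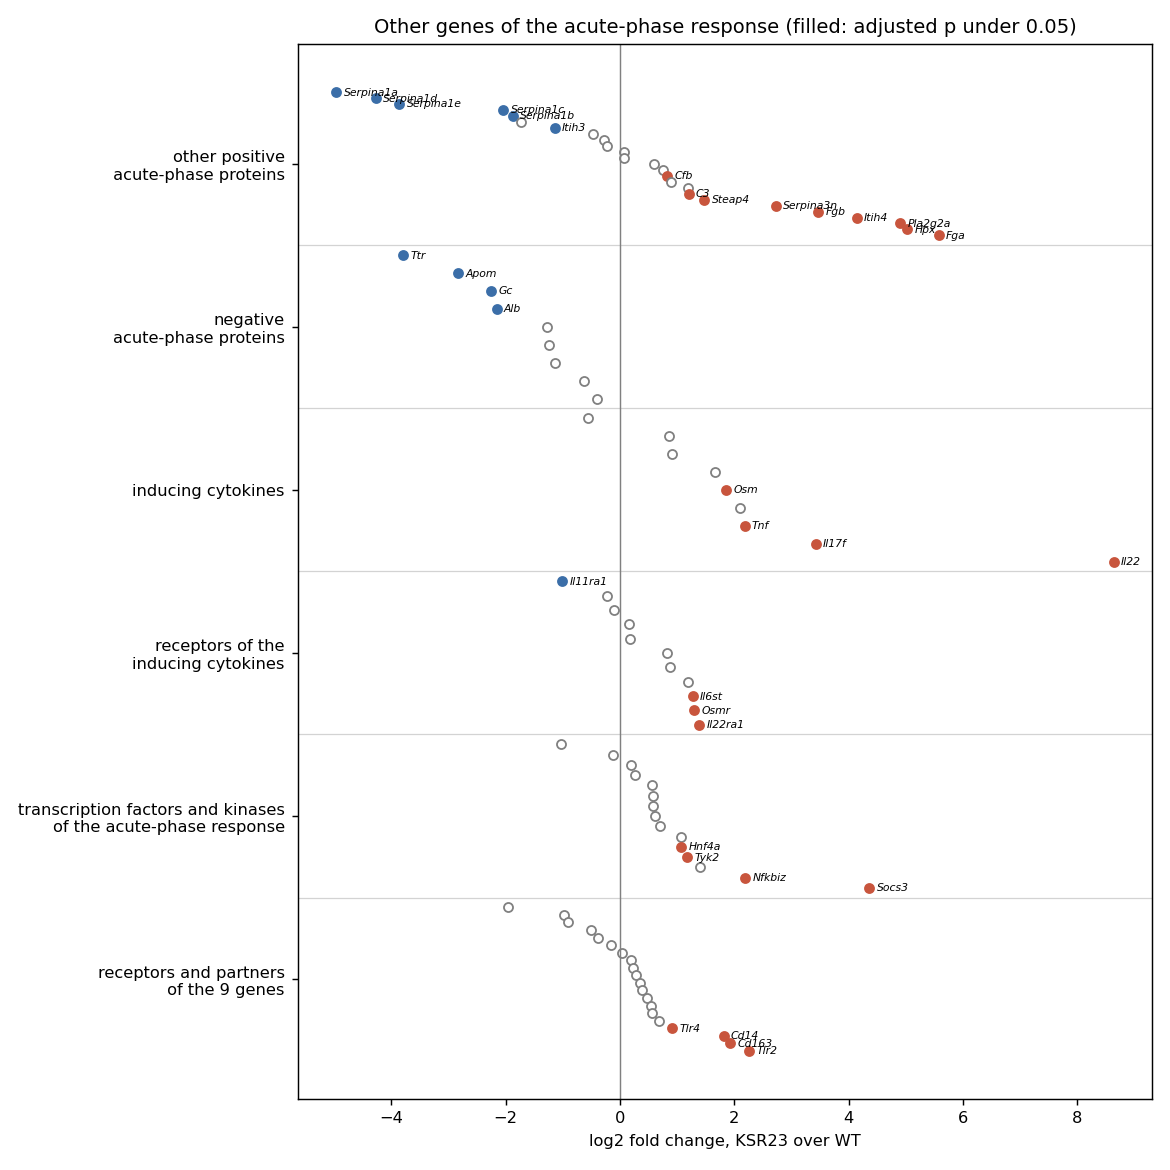
Log2 fold change of KSR23 over WT for the tested genes of 6 lists around the acute-phase response, 1 point a gene, ordered by value within a list. Filled and named points passed an adjusted p of 0.05 (red higher, blue lower) and open grey points did not. Positive acute-phase proteins lie on both sides of 0, from -4.96 (Serpina1a) to 5.57 (Fga), and Il22 lies farthest right at 8.63.

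Il22 had the largest fold change among the cytokines that induce acute-phase genes. Of 10 listed genes 9 were tested, and 4 rose and none fell (44.4% called, against 18.5% of all genes), with a median log2 fold change of 1.86. With the Y-linked share as covariate 2 were higher and 1, Il1b, was lower. Il22 had 1 count in each of 2 WT libraries and 0 in the rest, and 4.08 to 11.3 CPM in KSR23, with the highest value in replicate 3. Its pooled ratio of KSR23 to WT was 431, with a 95% counting interval of 119 to 3566 (exact Clopper-Pearson, unscaled totals). Tnf, tumour necrosis factor, rose from 0.319 ± 0.191 to 1.44 ± 0.253 CPM (SD, n = 5 each; edgeR adjusted p = 0.000276). Il17f rose from 0.0477 ± 0.077 to 0.548 ± 0.465 CPM (edgeR adjusted p = 0.00343), and Osm rose from 0.180 ± 0.170 to 0.659 ± 0.396 CPM (edgeR adjusted p = 0.0416, quasi-likelihood adjusted p = 0.0970). Il6 stood at 0.147 ± 0.151 CPM in WT and 0.631 ± 0.769 CPM in KSR23 (edgeR adjusted p = 0.181), and Il1b at 7.38 ± 3.31 and 5.02 ± 2.94 CPM (edgeR adjusted p = 0.486). Il1a, which encodes IL-1 alpha, was above Il22 in each KSR23 library and stood at 10.9 ± 3.85 CPM in WT and 19.9 ± 8.52 CPM in KSR23 (edgeR adjusted p = 0.125). Of the 9 genes tested, 1 was called in replicates 1 to 3 by either form of edgeR. Il22 was high in KSR23 replicates 3 and 5, whereas Saa1 was highest in replicates 1 and 4.

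Among the receptors for these cytokines 11 genes were tested. Of these 3 rose and 1 fell (36.4% called, against 18.5% of all genes), with a median log2 fold change of 0.82 (0.36 without KSR23 replicate 1). Il22ra1, the IL-22 receptor chain of epithelial cells, rose from 25.6 ± 4.84 to 67.0 ± 17.6 CPM (SD, n = 5 each; log2 fold change 1.39 ± 0.29, edgeR adjusted p = 6.84e-05). Osmr (1.30 ± 0.39) and Il6st, the signalling chain shared by the IL-6 family (1.28 ± 0.39), rose on the log2 scale, and Il11ra1 fell (-1.01 ± 0.32). In replicates 1 to 3 alone 0 of the 11 receptors were called by either test of edgeR, and 2 had an unadjusted p under 0.05 in each.

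Factors and kinases of the response changed in 4 of 15 cases (3 in the quasi-likelihood form), all upward (26.7% and 20.0% called, against 18.5% and 15.4% of all genes in the same fits), with a median log2 fold change of 0.61 (0.93 without WT replicate 3). Of these 15 genes edgeR called 1 and 0 from replicates 1 to 3 in its 2 forms, with an unadjusted p under 0.05 in 3 each. Socs3, a feedback inhibitor induced by STAT3, rose from 3.39 ± 1.998 to 69.9 ± 61.1 CPM (SD, n = 5 each), with a log2 fold change of 4.36 ± 0.60 (SE, edgeR adjusted p = 1.54e-08). Within KSR23 it stood at 163 and 101 CPM in replicates 1 and 4 and at 22.1 to 38.9 CPM in the others, and Saa1 and Serpina10 were also highest in replicates 1 and 4. These were the 2 KSR23 libraries with more than 1 CPM of Y-linked transcripts, and the part of this in their levels was not tested. Replicate 4 was the highest or lowest KSR23 library at only 11.5% of genes, so replicates 1 and 4 may not be independent. Nfkbiz, a nuclear partner of NF-kB, rose from 4.61 ± 1.61 to 21.1 ± 9.31 CPM (log2 fold change 2.20 ± 0.38, edgeR adjusted p = 8.28e-07). Hnf4a rose by 1.08 ± 0.29 on the log2 scale and Tyk2 by 1.18 ± 0.44, the latter without a call in the quasi-likelihood test (adjusted p = 0.0738). Stat3 stood at 94.3 ± 46.8 CPM in WT and 199 ± 92.5 CPM in KSR23 (edgeR adjusted p = 0.0887), and Cebpb and Cebpd, which encode C/EBP factors, were at 1.14 CPM or less in the mean of either group and were not called. Without KSR23 replicate 3 the number called was 7 (6 higher and 1 lower).

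Receptors and partners of the 9 gene products were called in 4 of 20 tested cases (20.0%, close to the 18.5% of all genes), all upward, with a median log2 fold change of 0.32 (0.20 without WT replicate 1 or 5). From replicates 1 to 3 edgeR called 1, or 0 in its quasi-likelihood form, with an unadjusted p under 0.05 in 3 each. The acceptors of Lbp-bound lipopolysaccharide were among them. Cd14 rose from 8.74 ± 3.49 to 30.7 ± 7.41 CPM (SD, n = 5 each; log2 fold change 1.81 ± 0.34, edgeR adjusted p = 9.35e-06), and Tlr4 rose from 1.60 ± 0.438 to 3.03 ± 0.876 CPM (edgeR adjusted p = 0.0491, quasi-likelihood adjusted p = 0.0618). Ly96, the partner of Tlr4, stood at 36.6 ± 8.19 CPM in WT and 19.6 ± 9.20 CPM in KSR23 (edgeR adjusted p = 0.0824). Tlr2, which also binds SAA, rose from 2.47 ± 0.970 to 11.8 ± 4.69 CPM (log2 fold change 2.26 ± 0.38). Cd163, the macrophage receptor for haptoglobin with hemoglobin, rose from 0.815 ± 0.112 to 3.12 ± 1.93 CPM (log2 fold change 1.93 ± 0.45). Of the partners of Serpina10 in the clotting pathway, Proz and F10 were abundant and were not called. Proz, protein Z, stood at 59.4 ± 12.4 CPM in WT and 68.1 ± 28.6 CPM in KSR23, and F10, factor X, at 278 ± 52.2 and 214 ± 95.7 CPM. F11, factor XI, had 1 count in WT replicate 1 and 0 in the other libraries, and was not tested. The hemoglobin genes Hba-a1, Hba-a2 and Hbb-bs were at 0 in all 10 libraries. Reads with more than 1 placement were not counted, so 0 at genes with close copies does not show absence of transcripts.

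Genes next to the members were examined to see how far the difference reached along the chromosome. On the Saa3 side, Saal1 lies 1.32 kb away and stood at 19.2 ± 2.16 CPM in WT and 21.1 ± 3.62 CPM in KSR23 (SD, n = 5 each; log2 fold change 0.13 ± 0.27). Tph1 (0.17 ± 0.34), Sergef (0.43 ± 0.29) and Kcnc1 (0.85 ± 0.94) were not called either on that side. On the Saa2 side, Hps5 lies 6.15 kb away and rose from 37.2 ± 8.94 to 83.3 ± 24.9 CPM (log2 fold change 1.16 ± 0.31, edgeR adjusted p = 0.00275). Ldha, lactate dehydrogenase A, rose (1.08 ± 0.30) and Ldhc fell from 0.815 ± 0.202 to 0.294 ± 0.196 CPM, without a call in the quasi-likelihood test (adjusted p = 0.0702), with Gtf2h1, between Hps5 and Ldha, not called (0.36 ± 0.48). No neighbour approached the log2 fold changes of Saa1, Saa2 and Saa3, 8.40 to 8.67.

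Around Serpina10 no neighbour was called higher. Ppp4r4, 0.955 kb away, stood at 0.105 ± 0.0906 CPM in WT and 0.0953 ± 0.0909 CPM in KSR23 (SD, n = 5 each). Beyond it Ifi27, an interferon-stimulated gene, fell (-2.23 ± 0.34), Ifi27l2b fell (-0.97 ± 0.34, quasi-likelihood adjusted p = 0.0564) and Ifi27l2a was not called. On the other side Serpina1f was not called (-1.08 ± 1.18), and Serpina1b, Serpina1d and Serpina1a, 96.7 to 222 kb away, fell as described above.

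The genes whose profile over the 10 libraries lay closest to Saa1, Saa2, Saa3 and Lcn2 were found by the mean absolute difference of centred log2(CPM + 0.5), over 17623 other genes. Car4, a membrane carbonic anhydrase, was closest to Saa1 (mean difference 0.44), followed by Fga (0.68) and Tmem74b (0.76). Closest to Saa3 were Ppef1 (0.67), Ptk6 (0.68) and B3galt5 (0.77), closest to Saa2 were Mfsd4 (0.31), Igf2bp1 (0.33) and Cyp2d12 (0.33), and closest to Lcn2 were S100a14 (0.17), Skap2 (0.18) and Ddx21 (0.19). Car4 shared the wide range of Saa1 among KSR23 libraries, from 8.03 to 239 CPM. Fga ranged over 11.2-fold there but Tmem74b over 1.99-fold, against 14.3-fold for Saa1. Ppef1, Ptk6 and B3galt5 ranged over 1.92-fold to 4.05-fold, against 1.33-fold for Saa3. The values were centred over both groups, so the distance mostly finds genes with a similar group difference. The likeness is a description of libraries that share depth and GC effects, and for the low Saa2 it depends on the 0.5 added.

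Markers of other cells that make acute-phase proteins were examined beside these results. For hepatocytes all 10 markers were in the files, and their sum was 279 to 652 CPM in WT and 18.7 to 89.6 CPM in KSR23. Ttr made up 269 to 631 CPM of it in WT and 6.64 to 60.1 CPM in KSR23, and the other 9 summed to 9.62 to 21.1 CPM in WT and 12.1 to 29.8 CPM in KSR23. Alb was at 0.424 to 3.27 CPM in WT and at 0 to 1.07 CPM in KSR23, and it is a negative acute-phase protein as well as a marker. Ttr, another negative acute-phase protein, and Cyp2e1 fell too, the latter on 0 to 18 WT counts and without a call in the quasi-likelihood test (adjusted p = 0.0742), whereas Fgb, listed above among the positive ones, and Hpd (8.20 ± 1.26 to 14.4 ± 4.59 CPM, SD, n = 5 each) rose, and the other 5 were not called. For neutrophils, which store Lcn2 and Hp, 11 of 12 markers were in the files and their sum was 28.1 to 36.4 CPM in WT and 23.9 to 63.5 CPM in KSR23. Without Ltf, which stood at 1.36 to 2.29 CPM in WT and 12.3 to 44.8 CPM in KSR23, the others summed to 26.5 to 35.1 CPM in WT and 7.37 to 18.8 CPM in KSR23. Of these Ltf and Elane rose, Elane on 0 WT and 0 to 7 KSR23 counts and without a call in the quasi-likelihood test (adjusted p = 0.0838), Ngp and Retnlg fell, and S100a8 stood at 3.35 ± 2.30 CPM in WT and 3.57 ± 1.59 CPM in KSR23. Macrophage markers (8 of 9 in the files) summed to 876 to 1062 CPM in WT and 632 to 836 CPM in KSR23, and adipocyte markers (7 of 7) to 680 to 749 and 295 to 512 CPM, with Adipoq and Lep at 0 in all libraries. Without Cidec (575 to 602 CPM in WT and 254 to 428 CPM in KSR23) the adipocyte sum was 85.9 to 174 CPM in WT and 40.8 to 84.4 CPM in KSR23. Mesothelial markers (5 of 5) summed to 18.1 to 64.0 CPM in WT and 31.9 to 63.4 CPM in KSR23. Of the macrophage markers Itgam rose and Cd68, C1qb and C1qc fell, Itgam and C1qc without a call in the quasi-likelihood test (adjusted p = 0.0521 and 0.0697). Without WT replicate 3, 4 or 5, or without KSR23 replicate 5, only 1 macrophage marker was called, as lower. Of the adipocyte markers Fabp4 and Cidec fell, and of the mesothelial ones Upk1b rose. From replicates 1 to 3 edgeR called 1 hepatocyte marker (Ttr, without a call in the quasi-likelihood form) and 2 neutrophil markers (Ltf and Retnlg), but 0 of the macrophage, adipocyte and mesothelial markers, with an unadjusted p under 0.05 in 0, 1 and 1 of them. Without WT replicate 4, or without WT replicate 5, 2 hepatocyte markers were called (1 higher and 1 lower), against 5 with all 10 libraries. The part of hepatocytes, neutrophils, macrophages, adipocytes and mesothelium in the levels of the 9 genes was not tested.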

How the data were processed

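Jejunum RNA of 5 WT and 5 KSR23 libraries at postnatal day 5 was copied from picogram amounts with oligo-dT, amplified by PCR without molecular identifiers and read as single-end 75-base reads. Intervals therefore cover counting error only. Groups and replicate numbers came from the sample titles, which give each library as a separate sample, and nothing else was used to group them. Per the submitters' processing notes TopHat2 2.1.0, HTSeq 0.6.1p1 and edgeR 3.18.1 were used with build mm10. The deposited values were raw counts per gene symbol, which the authors made by keeping reads strictly within transcript models. Reads with more than 1 placement (8.62 to 17.1 M per library) entered no gene. The strand setting is not given in the sources used here.

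The filter was a count of at least 5 in any library (17632 genes). Totals were scaled by TMM in edgeR 4.0.16 (R 4.3.3), and the likelihood ratio test, which the study used, was run on the group term with Benjamini-Hochberg adjustment over all genes and a threshold of 0.05. The step was tested on simulated counts. Fold changes are KSR23 over WT. Gene positions and exon lengths are from GENCODE M21, in which 94.5% of symbols were found. The genes, the lists around them and the cell markers were chosen with earlier results of these data known. Named genes were the 9 genes, genes of the lists, the 4 tested genes on either side of the Saa stretch and of Serpina10, and the 3 nearest profiles of Saa1, Saa2, Saa3 and Lcn2. Alternatives were the quasi-likelihood F test, DESeq2 1.42.0, relative log expression (RLE) factors, unscaled totals, 2 other filters, replicates 1 to 3 alone, leaving out each library, a replicate block, and the Y-linked share as a covariate. GC-smoothed offsets, leaving out both GC-poor libraries and the length of the first listed transcript were added after seeing the data.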

Additional observations from a re-analysis of the deposited data

Results flagged for a closer look

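Among the named genes 163 groups of 5 libraries were scanned for a library far from the others (Dixon's ratio), where chance gives about 1 in 20, or 8.15, and 13 were found. Of the 9 genes only Saa4 was among them, at 0.155 CPM in WT replicate 1 and 0 in the other WT libraries. With all the others at 0 its ratio of 1 was fixed by construction. Saa2 and Serpina10 had the same pattern in WT on a single count and were not flagged. WT replicate 3 was low for C3 (3.85 CPM, others 13.8 to 17.2), Osmr (1.83 CPM, others 5.29 to 6.28), Hps5 (21.7 CPM, others 38.6 to 43.7) and Tph1 (8.81 CPM, others 11.3 to 12.4). WT replicate 5 was low for Serpina3n (0.263 CPM, others 0.547 to 0.660) and high for Serpina1f (0.713 CPM, others 0.106 to 0.202). WT replicate 2 was low for Serpina1c (1.45 CPM, others 3.83 to 4.58) and high for Kcnc1 (0.248 CPM, others at most 0.0576). KSR23 replicate 2 was low for Serpina1e (7.83 CPM, others 47.0 to 79.1). KSR23 replicate 3, poor in GC-rich genes, was low for Tyk2 (7.95 CPM, others 22.6 to 33.6) and high for Ngp (3.34 CPM, others 0.341 to 0.790). KSR23 replicate 1 was low for S100a14 (1.27 CPM, others 3.22 to 4.32), as it was for Lcn2, whose profile S100a14 resembled.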

How the results depend on the processing

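No fold change of the 9 genes changed sign in any alternative. Replicates 1 to 3 alone called 579 genes in the likelihood ratio test, and 140 in the quasi-likelihood F test, against 3262 in all 10 libraries, and the Y-linked covariate left 1797. Of the 9 genes, 5 and 4 were called in replicates 1 to 3 by these tests, and 5 with 5 or more counts demanded in every library, a filter that removed Saa1, Saa2, Saa4 and Serpina10. Of the other positive acute-phase proteins 9 and 4 were called in replicates 1 to 3. Of the negative ones 2 and 0 were called (unadjusted p under 0.05 in 3 and 2), and 2 under the strict filter. Of the inducing cytokines 1 and 1 were called, and 0 under the strict filter (unadjusted p under 0.05 in 2 of 3). Of their receptors 0 and 0 were called (unadjusted, 2 and 2), and 1 with the Y-linked covariate. Of the factors and kinases 1 and 0 were called (unadjusted, 3 and 3). Of the receptors and partners of the 9 gene products 1 and 0 were called (unadjusted, 3 and 3), and 2 with the Y-linked covariate. Fewer libraries and genes entered these fits by construction, and for the covariate the cause was not tested.

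Leaving out 1 library at a time gave 2370 to 3802 genes, 8 to 9 of the 9 genes, 13 to 16 other positive and 3 to 5 negative acute-phase proteins, 3 to 5 cytokines, 3 to 5 receptors, 3 to 7 factors and kinases (7 without KSR23 replicate 3), and 3 to 5 receptors and partners. GC-smoothed offsets called 3398 genes (1495 higher and 1903 lower, against 1717 and 1545) and moved the median log2 fold change of all genes by -0.11, and leaving out both GC-poor libraries called 3419. Per kb of the first listed transcript the KSR23 means of Saa3 (343 CPM per kb) and Lbp (17.4) were above those per kb of exons.

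Deviations of same-numbered libraries correlated at 0.41, 0.35 and 0.52 for replicates 2, 4 and 5 but at -0.75 and -0.69 for replicates 1 and 3, and of the WT libraries only replicate 4 correlated best with its own number. The numbers were therefore not taken to pair the libraries. The replicate block called 2202 genes and 7 of the 9, with Lrg1 (log2 fold change 3.17) not called. At the lowest depth 3 counts were 0.118 CPM, which limits Saa4 and the WT levels of Saa1, Saa2 and Serpina10.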

Other observations

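Structural and exocrine markers were read in the same libraries. Fibroblast markers summed to 1248 to 1893 CPM in WT and 1234 to 1756 CPM in KSR23, with Dcn lower in KSR23 and the other 5 genes not called. Endothelial markers summed to 107 to 164 CPM in WT and 115 to 181 CPM in KSR23, with Cdh5 lower and the other 4 not called. Cdh5 was not called without WT replicate 4, without KSR23 replicate 4, with the replicate block or with the Y-linked covariate. Pancreatic acinar markers summed to 19.5 to 112 CPM in WT and 5.82 to 15.5 CPM in KSR23, with 4 of 8 genes lower (Cpa1, Cela2a, Cela1 and Sycn, Cpa1 without a call in the quasi-likelihood test, adjusted p = 0.0595) and Amy2a5 and Ptf1a at 0 in all libraries. Most of the sum was Cela1 (70.6 ± 35.7 CPM in WT and 8.85 ± 4.18 CPM in KSR23, SD, n = 5 each). Among the epithelial markers Krt20 and Cdh1 rose, Cdh1 without a call in the quasi-likelihood test (adjusted p = 0.0572), and Fabp2, the intestinal fatty acid-binding protein, fell. From replicates 1 to 3 edgeR called 0 fibroblast and 0 endothelial markers (unadjusted p under 0.05 in 0 and 1), 2 acinar markers (Cela1 and Sycn) and 1 epithelial marker (Krt20), and its quasi-likelihood form called 0 of them (unadjusted p under 0.05 in 0, 1, 3 and 1).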
